A study of Mus musculus with 10 samples.

Results

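The 10 genes described here are those that neurobiologists use most to recognise astrocytes: the glutamate transporters Slc1a2 and Slc1a3, glutamine synthetase Glul, the connexins Gja1 and Gjb6, the water channel Aqp4, the intermediate filament Gfap, and S100b, Aldh1l1 and Sparcl1. They were listed by gene name, with earlier results of these data known, and each was found once among the 37447 genes of the expression table. The table holds FPKM values (sequenced fragments scaled to the length of the transcript and to the size of the library) for 10 libraries of microglia from the brainstem of mice aged 6 weeks. In 4 libraries, GFP expressing microglia were cut out of cryosections by laser after a short paraformaldehyde fixation (LCM_GFP, called laser-captured below). In 3 libraries, GFP expressing microglia were flow sorted from dissociated and Percoll-enriched tissue (FACS_GFP, sorted GFP), and in 3 more, microglia of wild-type C57BL/6 mice were sorted in the same way (FACS_WT, sorted wild-type). The promoter that drives GFP and the strain of the GFP mice are not given in the sources used here. Sorted cells gave RNA through TRIzol and captured cells through proteinase K and acid phenol, so isolation, fixation and extraction cannot be told apart.

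Astrocytes surround synapses and blood vessels with fine processes. Their glutamate transporters Slc1a2 (GLT-1) and Slc1a3 (GLAST) take up the transmitter that neurons release, and Glul turns it into glutamine, which goes back to neurons. Gja1 (connexin 43) and Gjb6 (connexin 30) form the gap junctions that join astrocytes into a network, and Aqp4 sits in the endfeet that wrap vessels. Gfap is the filament by which astrocytes are stained, S100b is a calcium-binding protein, Aldh1l1 is an enzyme of folate metabolism and Sparcl1 (hevin) is a secreted protein that promotes synapse formation. Several of them are not astrocyte genes alone: S100b and Glul are also found in oligodendrocytes, and Sparcl1 also in endothelium.

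The labelled cell type was first set against its markers. The summed FPKM of 19 microglial genes was 2589 to 6270 in the laser-captured libraries and 9601 to 14260 in the sorted libraries. Genes at 1 FPKM or more numbered 11075 to 12500 by laser and 11706 to 11821 by sorting. Laser-captured libraries 1 and 3 stood apart from 2 and 4: the embryonic globin Hbb-y was at 902.2 and 438.9 FPKM in them, against 0.102 and 0.0666 FPKM in libraries 2 and 4. The summed level of 7 genes of dividing cells was 672.8 and 144.5 FPKM in libraries 1 and 3, against 19.3 and 17.3 FPKM. Both libraries are labelled female and had Xist, the RNA that coats the silenced X chromosome, at 14.05 and 32.77 FPKM. Yet library 1 had the Y chromosome gene Uty at 15.6 FPKM and library 3 had Kdm5d at 5.96 FPKM. Other Y chromosome genes were lower: Kdm5d, Eif2s3y and Ddx3y were at 3.26, 2.25 and 0.198 FPKM in library 1. In library 3, Uty, Eif2s3y and Ddx3y were at 0.286, 0 and 0 FPKM. In sorted GFP library 2, labelled male, Xist was at 3.91 FPKM. Results are therefore also given for laser-captured libraries 2 and 4 alone.

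Of the 10 astrocyte genes, 7 were higher in laser-captured than in sorted GFP microglia, none was lower and 3 did not pass the test (limma on log2(FPKM + 1), Benjamini-Hochberg adjusted p under 0.05). Slc1a2, Aqp4, Gfap, Gja1, Gjb6, S100b and Sparcl1 rose, and Slc1a3, Glul and Aldh1l1 did not pass. Over all 13403 genes tested, 12.5% were called higher and 19.6% lower. Under median ratio scaling the calls over all genes were 1878 higher and 1268 lower, against 1681 higher and 2624 lower on the FPKM as deposited, while the count for the astrocyte genes was 7 higher and none lower on both scales. For 8 of the 10 genes every laser-captured library lay above every sorted GFP library, which held for 17.0% of all genes tested. The median log2 difference of the 10 genes was 3.29, against a median of -0.60 over all genes. Those figures are a description, since 7 of the 10 genes were under 1 FPKM in every sorted GFP library and entered the test only through the laser-captured ones. With laser-captured libraries 2 and 4 alone and the same genes tested, a setting chosen after seeing the data, 8 of the 10 were higher (Aldh1l1 beside the 7), and over all genes 18.1% were called higher and 31.5% lower.

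**Figure D1:**
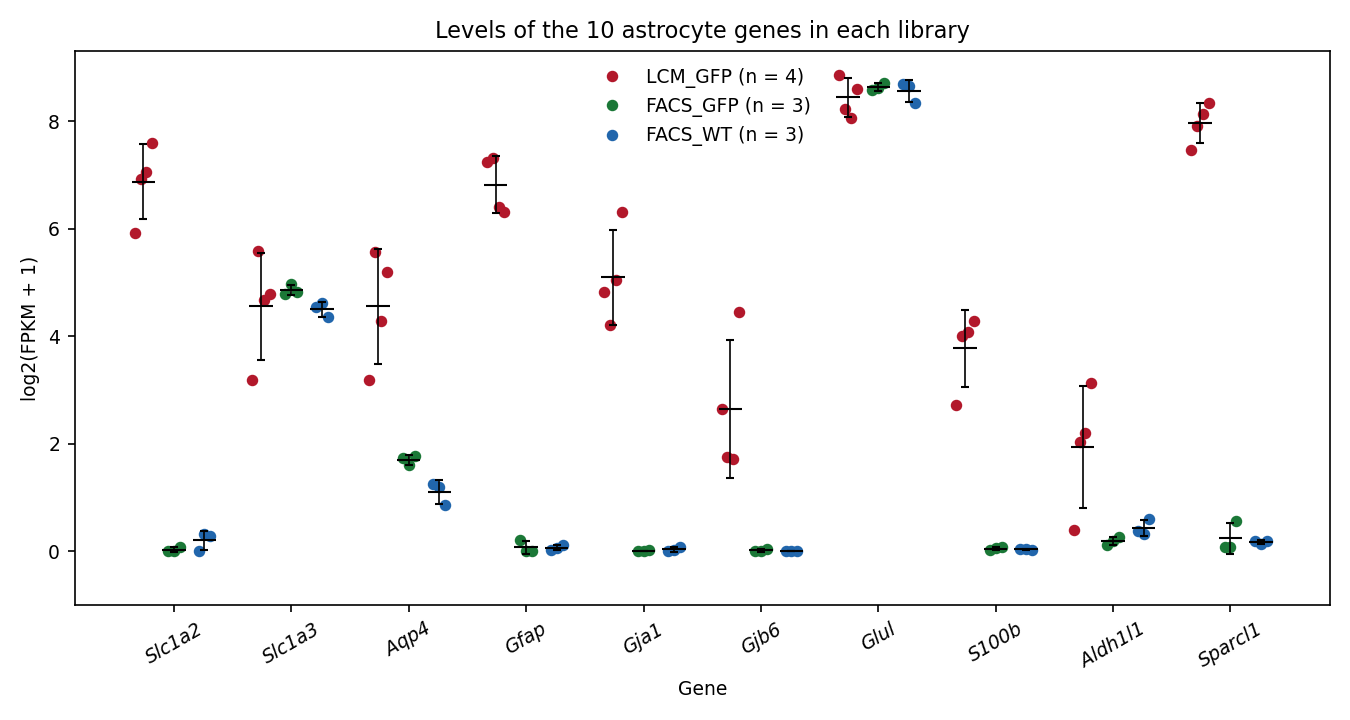
Level of each astrocyte gene, as log2(FPKM + 1), in the 4 laser-captured (LCM_GFP), 3 sorted GFP (FACS_GFP) and 3 sorted wild-type (FACS_WT) libraries. Points are libraries, black lines are group means with bars of 1 SD. Slc1a3 and Glul have overlapping laser-captured and sorted points, and the sorted libraries lie near 0 for the other genes except Aqp4.

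The glutamate transporters went separate ways. Slc1a2 (ENSMUSG00000005089, mm9 chromosome 2, 102498815 to 102630941) had 59.8, 120.6, 131.8 and 193.6 FPKM in laser-captured libraries 1 to 4. In the sorted GFP libraries it had 0.00167, 0.00487 and 0.0591 FPKM, and in the sorted wild-type libraries 0.00322, 0.252 and 0.220 FPKM. No sorted library came near any laser-captured one, and the difference from sorted GFP was 6.85 on the log2(FPKM + 1) scale (SE 0.484, adjusted p = 0.000113). The pseudocount of 1 makes this difference smaller than the ratio of the levels for genes near 0. In bulk libraries, fewer cells of a type and less RNA per cell cannot be told apart.

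Slc1a3, the other transporter (ENSMUSG00000005360, mm9 chromosome 15, 8584123 to 8660764), had 8.14, 46.9, 24.4 and 26.7 FPKM in the laser-captured libraries. It had 26.5, 30.5 and 27.4 FPKM in sorted GFP and 22.2, 23.5 and 19.4 FPKM in sorted wild-type microglia. The laser-captured values lay on both sides of the sorted ones, with library 1 below them all and library 2 above them all. The log2 difference from sorted GFP was -0.30 (95% interval -1.61 to 1.01, adjusted p = 0.708), which does not show that the levels were alike, and its sign turned to 0.22 under median ratio scaling and to 0.15 without laser-captured library 1. The FPKM of Slc1a2 was 2.57 to 7.35 times that of Slc1a3 in the laser-captured libraries. In the sorted libraries the order was the opposite in all 6, with Slc1a3 at 88.4 or more times the level of Slc1a2.

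Glul (ENSMUSG00000026473, mm9 chromosome 1, 155747073 to 155756853) was the most abundant of the 10 genes in 9 of the 10 libraries. It had 466.8, 299.3, 267.8 and 390.1 FPKM in the laser-captured libraries, 382.9, 394.3 and 419.2 FPKM in sorted GFP and 413.3, 404.7 and 323.2 FPKM in sorted wild-type microglia. These ranges overlapped, and Glul was the gene of rank 88 to 199 in its library after laser capture and of rank 88 to 170 after sorting. The log2 difference from sorted GFP was -0.20 (95% interval -0.83 to 0.43, adjusted p = 0.609), and 0.35 under median ratio scaling (adjusted p = 0.417). A gene on an overlapping stretch, A930039A15Rik, was at 0 FPKM in the laser-captured and at 1.09 to 3.88 FPKM in the sorted libraries, and whether the counting used strand is not given in the sources used here.

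Slc1a2, Slc1a3 and Glul act in a row on the same transmitter but differed in where they were found, so the 250 bases before their start sites are shown (RefSeq, build GRCm38.p6, which is not the mm9 of the expression table). The windows are chr2:102706188-102706437 on the plus strand for Slc1a2, chr15:8710808-8711057 on the minus strand for Slc1a3 and chr1:153899679-153899928 on the plus strand for Glul. Each is written 5′ to 3′ on the gene's strand, and capitals mark matches to the motifs searched.
Slc1a2: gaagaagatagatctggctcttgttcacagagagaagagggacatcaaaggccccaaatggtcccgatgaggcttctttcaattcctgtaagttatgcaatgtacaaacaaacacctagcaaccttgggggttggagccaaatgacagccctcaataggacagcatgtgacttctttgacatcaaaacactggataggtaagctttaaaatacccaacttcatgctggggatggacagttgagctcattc
Slc1a3: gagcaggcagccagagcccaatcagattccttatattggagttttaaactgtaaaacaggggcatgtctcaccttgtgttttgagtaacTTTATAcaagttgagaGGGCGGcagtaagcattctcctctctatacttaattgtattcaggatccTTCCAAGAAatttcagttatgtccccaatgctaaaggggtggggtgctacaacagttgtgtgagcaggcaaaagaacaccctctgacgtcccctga
Glul: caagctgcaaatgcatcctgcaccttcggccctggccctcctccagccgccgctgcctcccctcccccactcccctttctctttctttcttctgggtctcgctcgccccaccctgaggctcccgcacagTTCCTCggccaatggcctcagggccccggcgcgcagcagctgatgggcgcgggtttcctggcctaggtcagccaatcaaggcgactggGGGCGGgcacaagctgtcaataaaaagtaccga
The Slc1a2 window held none of the motifs. In the Slc1a3 window the capitals are, in order, a TATA box match on the other strand, a GC box and a STAT match, and in the Glul window an ETS match on the other strand and a GC box. Both strands were searched for the NFI letters TTGGCA, for the SOX letters AACAAT, for a second form of the SOX letters, ACAAAG, for the STAT letters TTCNNNGAA, for the AP-1 letters TGANTCA, for the GC box GGGCGG, for the TATA box TATAAA and for the ETS letters GAGGAA, ETS being the family of PU.1. None of these motifs contains or overlaps another in the hits shown.

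Of all 32851 RefSeq windows of the same length, 32.7% held the GC box letters, 23.3% the ETS letters, 12.4% the TATA box, 12.3% the NFI letters, 7.02% the STAT letters and 6.75% the AP-1 letters. The SOX letters in the order above stood in 9.42% and 16.5%. Windows were matched for 8 of the 10 genes. Among these, the GC box was in Slc1a3, Glul and Aldh1l1, the ETS letters in Gja1 and Glul, the AP-1 letters in Gja1 alone, the NFI letters in S100b alone, and neither SOX motif was in any. The windows of Gfap and Gjb6, like that of Slc1a2, held none. The Glul window had a GC content of 64.8% with 15 CpG dinucleotides, against 44.8% in both transporter windows and a median of 52.4% and 6 CpG over all windows. Such matches are letters in a window and not shown to be binding sites.

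Both connexins were found in laser-captured libraries and hardly in sorted ones. Gja1 (ENSMUSG00000050953, mm9 chromosome 10, 56097105 to 56110225) had 27.5, 17.5, 32.0 and 78.9 FPKM in the laser-captured libraries. It was listed at 0, 0 and 0.0109 FPKM in sorted GFP and at 0, 0.0196 and 0.0603 FPKM in sorted wild-type microglia. The lowest laser-captured value was thus 290.1 times the highest sorted one, and the log2 difference from sorted GFP was 5.10 (SE 0.562, adjusted p = 0.00055).

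Gjb6 (ENSMUSG00000040055, mm9 chromosome 14, 57742139 to 57752448) had 5.29, 2.36, 2.27 and 20.9 FPKM in the laser-captured libraries, with library 4 far above the others. It was listed at 0, 0 and 0.0335 FPKM in sorted GFP and at 0 in all 3 sorted wild-type libraries. Against sorted GFP the log2 difference was 2.63 (SE 0.672, adjusted p = 0.0210). Without any 1 sorted GFP library the difference was 2.62 to 2.64 with an SE of 0.875 to 0.876, and the call ended (adjusted p from 0.0965 to 0.0978), as it did with a pseudocount of 5 (adjusted p = 0.0813). In the laser-captured libraries, Gja1 stood at 3.78 to 14.1 times the FPKM of Gjb6, so connexin 43 was the more abundant in all 4.

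Aqp4 (ENSMUSG00000024411, mm9 chromosome 18, 15547902 to 15562193) was the 1 gene that rose from a level above 1 FPKM in sorted GFP cells. It had 8.07, 46.6, 18.5 and 35.8 FPKM in the laser-captured libraries, 2.33, 2.03 and 2.43 FPKM in sorted GFP, and 1.40, 1.30 and 0.808 FPKM in sorted wild-type microglia. The 3 groups did not overlap, in the order laser-captured, sorted GFP, sorted wild-type. The log2 difference between laser-captured and sorted GFP was 2.86 (SE 0.622, adjusted p = 0.0110), and without any 1 sorted GFP library it was 2.8 to 2.89 with an adjusted p of 0.0625 to 0.0656. The FPKM of Slc1a3 was 0.747 to 1.32 times that of Aqp4 in the laser-captured libraries and 11.3 to 24.1 times in the sorted libraries.

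Gfap (ENSMUSG00000020932, mm9 chromosome 11, 102748649 to 102762226) had 150.7, 158.7, 84.1 and 78.7 FPKM in the laser-captured libraries. The sorted GFP libraries had 0.158, 0.00701 and 0 FPKM and the sorted wild-type libraries 0.0207, 0.0432 and 0.0845 FPKM. Gfap differed from sorted GFP by 6.75 on the log2 scale (SE 0.439, adjusted p = 7.99e-05). Among the laser-captured libraries it was highest in library 2 and lowest in library 4, where 6 of the 10 genes were highest. Its FPKM over that of Slc1a2 was 2.52, 1.32, 0.639 and 0.407 in libraries 1 to 4.

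Sparcl1 (ENSMUSG00000029309, mm9 chromosome 5, 104508129 to 104543107) had 176.5, 241.1, 279.9 and 323.4 FPKM in the laser-captured libraries, 0.0520, 0.0559 and 0.487 FPKM in sorted GFP and 0.147, 0.101 and 0.139 FPKM in sorted wild-type microglia. The log2 difference from sorted GFP was 7.73 (SE 0.389, adjusted p = 3.15e-05). Between the laser-captured libraries its coefficient of variation was 24.4%, near the 25.4% of Glul.

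S100b (ENSMUSG00000033208, mm9 chromosome 10, 75716597 to 75723904) had 5.599, 15.2, 16.01 and 18.5 FPKM in the laser-captured libraries, and the 6 sorted libraries ranged from 0.0134 to 0.0553 FPKM. Against sorted GFP the log2 difference was 3.73 (SE 0.501, adjusted p = 0.00117). Its end overlaps Dip2a, which had 7.55 to 31.7 FPKM in the laser-captured and 3.68 to 4.84 FPKM in the sorted libraries, so reads of the shared stretch could be given to either gene.

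Aldh1l1 (ENSMUSG00000030088, mm9 chromosome 6, 90436420 to 90550197) was the least abundant on average of the 10 genes in the laser-captured libraries, with 0.316, 3.11, 3.59 and 7.76 FPKM. The sorted GFP libraries had 0.0886, 0.148 and 0.201 FPKM and the sorted wild-type libraries 0.296, 0.252 and 0.518 FPKM. Every laser-captured library lay above every sorted GFP one, but library 1 lay below a sorted wild-type one. The log2 difference from sorted GFP, 1.75 (SE 0.585), missed the threshold (adjusted p = 0.0524). Without laser-captured library 1 it was 2.26 and passed (adjusted p = 0.0029), as it did in a fit of all 3 groups (adjusted p = 0.0218). Of the 15 alternatives in which Aldh1l1 was tested against sorted GFP, it passed in 6 and did not pass in 9. Without any 1 sorted GFP library the adjusted p was 0.164 to 0.175, and without the filter on low values it was 0.109.

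**Figure D2:**
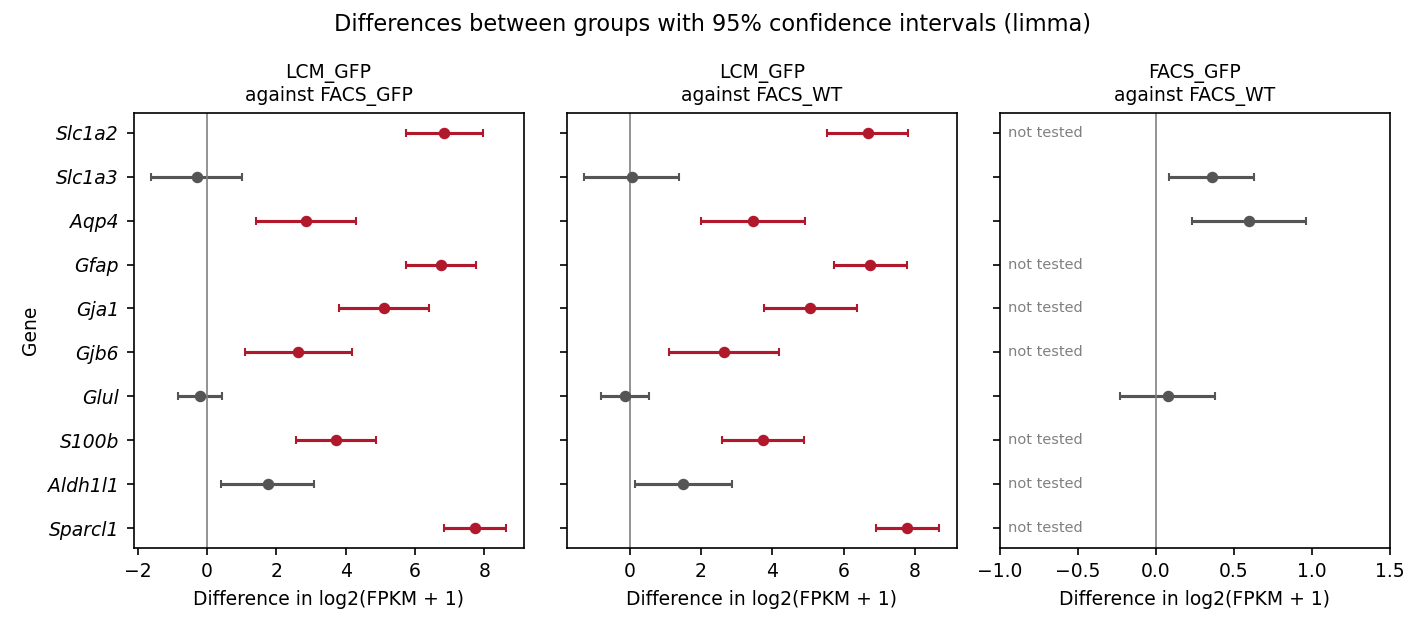
Difference between groups in log2(FPKM + 1) for each gene, with its 95% confidence interval from limma, in the 3 comparisons. Red marks genes called at an adjusted p under 0.05 and grey marks genes not called. The 7 called genes are the same symbols in the first 2 panels, which share the laser-captured libraries, and the third panel has its own narrower axis.

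Against sorted wild-type microglia the 4 laser-captured libraries gave 7 of the 10 genes higher, none lower and 3 not called. This comparison shares its laser-captured libraries with the one above, so it is not independent of it, and its groups also differ in GFP and, in part, in labelled sex. Of the 13415 genes tested, 12.3% were called higher and 19.1% lower, and for 16.9% every laser-captured library lay above every sorted wild-type one, as it did for 7 of the 10 genes. The log2 differences were 6.67 for Slc1a2, 3.45 for Aqp4, 6.75 for Gfap, 5.06 for Gja1, 2.64 for Gjb6, 3.74 for S100b and 7.79 for Sparcl1, with adjusted p from 2.75e-05 (Sparcl1) to 0.01997 (Gjb6). Slc1a3 differed by 0.06 (95% interval -1.27 to 1.38, adjusted p = 0.9499) and Glul by -0.12 (95% interval -0.79 to 0.55, adjusted p = 0.777), signs that turned under other settings. Aldh1l1 differed by 1.51 (SE 0.596, adjusted p = 0.0859). Gjb6 again lost its call without any 1 sorted wild-type library (adjusted p from 0.0900 to 0.0949). With labelled sex as a covariate, added after seeing the data, the Gjb6 difference was 1.75. All sorted wild-type libraries are labelled male, so that difference rests on the 1 laser-captured library labelled male. Its calls are therefore not given.

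Between sorted GFP and sorted wild-type microglia, 3 of the 10 genes could be tested and none was called. By limma over 11814 genes, 0.0339% were called higher and 0.0762% lower. Aqp4 had a mean of 2.26 ± 0.206 FPKM (SD, n = 3) in sorted GFP against 1.17 ± 0.316 FPKM (SD, n = 3) in sorted wild-type cells. Its log2 difference of 0.60 (95% interval 0.23 to 0.97) had an unadjusted p of 0.00529 and an adjusted p of 0.258 by limma. Slc1a3 had 28.1 ± 2.09 FPKM (SD, n = 3) against 21.7 ± 2.10 FPKM (SD, n = 3), a log2 difference of 0.36 (95% interval 0.09 to 0.63) with an unadjusted p of 0.0155 and an adjusted p of 0.298 by limma. Both genes were higher in every sorted GFP library than in every sorted wild-type one, and groups that do not overlap in either direction were seen for 20.8% of all genes tested. Glul differed by 0.08 (95% interval -0.23 to 0.38, adjusted p = 0.818). The other 7 genes were under 1 FPKM in every sorted library and were not tested, and Aldh1l1 among them was lower in each sorted GFP than in each sorted wild-type library. Sorted GFP mice were 2 females and 1 male and sorted wild-type mice 3 males by their labels, so sex differs in part with GFP. With labelled sex as a covariate, added after seeing the data, the log2 difference was 0.49 for Aqp4 and 0.47 for Slc1a3. These differences rest on sorted GFP library 2 alone, the 1 labelled male, against the 3 wild-type males. Both genes were above all 3 in it, which is the same observation and not a further one. That library also had Xist at 3.91 FPKM.

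The authors' own calls differed in part. At a q under 0.05 that table had 4 of the 10 genes higher in laser-captured than in sorted GFP microglia: Gja1, Gjb6, Aqp4 and Sparcl1. Of the 14813 genes that the authors' deposited table lists as tested there, 4.48% were higher at that q. Its log2 ratios for Slc1a2 and Gfap were 12.1 and 10.7, but their q values in the authors' deposited table were 0.439 and 0.463. Against sorted wild-type cells the authors' deposited table also called 4 higher, with Gfap (q = 0.0337) in place of Gjb6, and 4.38% of its tested genes were higher. Between the sorted groups the authors' deposited table called Aqp4 alone, with a log2 ratio of 1.01 and a q of 0.0325, where limma gave an adjusted p of 0.258, and 0.104% of its tested genes were higher.

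**Figure D3:**
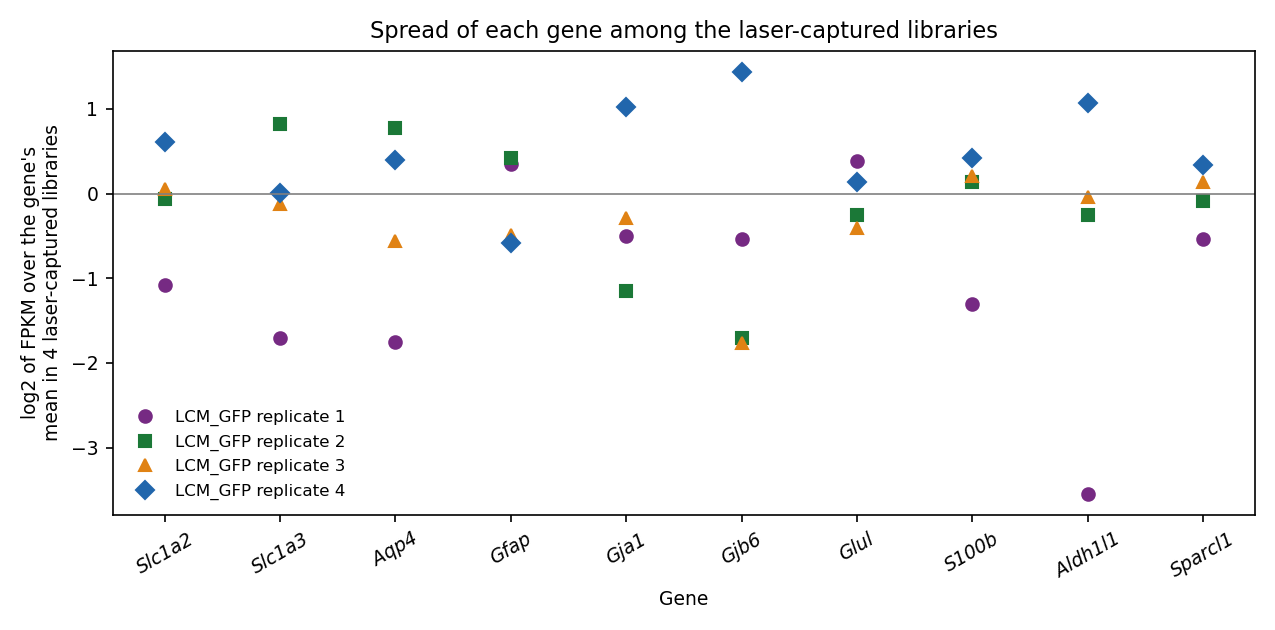
FPKM of each gene in the 4 laser-captured libraries, as log2 of its ratio to the gene's mean over them. Library 1 is lowest for 6 genes and library 4 highest for 6. Gfap is highest in library 2 and lowest in library 4, and Aldh1l1 has the widest range.

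The 10 genes varied unequally among the laser-captured libraries. The highest library stood at 24.5 times the lowest for Aldh1l1 and at 9.18 times for Gjb6, but at 1.74 times for Glul, 1.83 times for Sparcl1 and 2.02 times for Gfap. Library 1 was lowest for 6 genes, all but Gfap, Gja1, Gjb6 and Glul, and library 4 was highest for 6, namely Slc1a2, Gja1, Gjb6, S100b, Aldh1l1 and Sparcl1. Gfap over Aldh1l1 ran from 476.5 in library 1 through 51.0 and 23.4 in libraries 2 and 3 to 10.1 in library 4, so the markers did not keep a fixed ratio. The sum of all 10 genes was 860.5 to 1174 FPKM by laser capture and 344.4 to 449.9 FPKM by sorting. Without Slc1a3 and Glul, the sum of the other 8 was 433.8 to 757.5 FPKM by laser capture and 1.85 to 3.28 FPKM by sorting. These 2 were left out because of their levels in these same data, so the wider gap follows from that choice.

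The order of mean levels in the laser-captured libraries was Glul, Sparcl1, Slc1a2, Gfap, Gja1, Aqp4, Slc1a3, S100b, Gjb6 and Aldh1l1. Of the neighbours in that order, Sparcl1 was above Slc1a2 and Slc1a3 above S100b in 4 of 4 libraries. Slc1a2 and Gfap changed places in 2 of 4, as did Gjb6 and Aldh1l1, and Aqp4 was above Slc1a3 in 1 of 4, so these pairs do not differ beyond their spread. Each remaining pair of neighbours kept its order in 3 of 4. In all 6 sorted libraries the order began with Glul, Slc1a3 and Aqp4, and the other 7 genes followed, each under 1 FPKM.

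Other genes that astrocytes are known for were counted next. Of 40 further astrocyte genes, 36 were tested between laser-captured and sorted GFP microglia and 29 rose, none fell, with a median log2 difference of 4.46. The remaining 4 stayed under the filter, and the reserve about genes near 0 in sorted cells holds for this and the lists below. Atp1b2, a subunit of the sodium pump, was among the 3 of these genes with the highest mean over the 10 libraries. It had 551.7 ± 194 FPKM (SD, n = 4) in the laser-captured libraries and a log2 difference of 8.45 (adjusted p = 5.08e-05). Ttyh1, a membrane protein, rose by 4.91 (adjusted p = 0.00127). Apoe, the lipid carrier, had 379.6 ± 258 FPKM (SD, n = 4) against 276.1 ± 27.1 FPKM (SD, n = 3) and was not called (adjusted p = 0.943 by limma).

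Around the glutamate transporters, 18 genes of glutamate transport and the glutamine cycle were looked up, 13 were tested, and 5 were higher and none lower. Got1, an aspartate aminotransferase, rose by 3.25 on the log2 scale (adjusted p = 0.000373). Glud1, glutamate dehydrogenase, had a log2 difference of -0.31 (adjusted p = 0.556). With laser-captured libraries 2 and 4 alone and the same genes tested, 8 of the 13 were called, as were 6651 of all 13403 genes. Among 21 further connexins and pannexins, 6 were tested and 4 were higher. Gjc3 and Gjb1, connexins of oligodendrocytes, rose by 5.63 (adjusted p = 0.000179) and 4.67 (adjusted p = 0.0029), and Gja5, an endothelial connexin, had a log2 difference of 0.34 (adjusted p = 0.866). The connexins that rose were therefore not those of astrocytes alone.

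Of 19 other aquaporins and members of the dystrophin complex that anchors Aqp4, 7 were tested, 2 were higher and 1 was lower. Utrn, utrophin, Dtnb, dystrobrevin beta, and Dag1, dystroglycan, had log2 differences of 0.07, 1.58 and 0.25 and were not called. Without laser-captured library 3, 5 of the 7 were called, 4 higher and 1 lower. Over all 12831 genes tested there, 1626 were higher and 2915 lower.

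Beside Gfap, 8 of 12 other intermediate filament genes were tested and 6 were higher. Vim, vimentin, which astrocytes and endothelium share, rose by 3.92 (adjusted p = 0.000891), and the neurofilaments Nefm and Nefh, of neurons, rose by 6.86 and 6.35. Beside S100b, 6 of 16 genes were tested and 3 were higher, among them S100a11 (log2 difference 1.55, adjusted p = 0.0432) and S100a1 (2.79, adjusted p = 0.0146). S100pbp, which is listed here by its name and is a binding protein, had a log2 difference of 0.23 (adjusted p = 0.616). Beside Aldh1l1, 3 of 6 aldehyde dehydrogenase 1 genes were tested: Aldh1a1 rose by 4.75 (adjusted p = 0.000458) and Aldh1a2 by 1.34 (adjusted p = 0.00944). Its closest relative Aldh1l2, the mitochondrial form, fell by 1.95 (adjusted p = 0.0116).

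Beside Sparcl1, 6 of 9 SPARC family genes were tested and 5 were higher, Spock2 by 5.88 and Spock1 by 5.16 (adjusted p = 0.000458 for each). Sparc itself, the most abundant of the family in both kinds of library, had 647.9 ± 160 FPKM (SD, n = 4) in laser-captured against 1032 ± 95.6 FPKM (SD, n = 3) in sorted GFP cells, and its log2 difference of -0.71 was not called (adjusted p = 0.0842). Of 14 genes listed for reactive astrocytes, 8 were tested, and 2 were higher and 2 lower. The lower ones were Cxcl10, a chemokine that was at 0 FPKM in every laser-captured library and at 9.64 to 16.4 FPKM in sorted GFP, and Tgm1, a transglutaminase (log2 difference -1.12, adjusted p = 0.0282). Cp, ceruloplasmin, and S1pr3, a sphingosine phosphate receptor, had log2 differences of 0.72 and 2.36 with adjusted p of 0.685 and 0.146. Of 13 genes of radial glia and ependyma, 5 were tested and 2 were higher, Prom1 by 2.94 (adjusted p = 0.00981), while Ttr had a log2 difference of -2.21 (adjusted p = 0.0748) and Rarres2 did not pass the filter.

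Without any 1 sorted GFP library, whichever it was, calls over all genes fell from 4305 to between 1042 and 1087. In these lists the calls were then 1 of the S100 genes, 1 aldehyde dehydrogenase 1 gene, 3 SPARC family genes, and 0 of the reactive and of the radial glia genes. Without laser-captured library 2 or 4, the filter left 4 SPARC family genes to test instead of 6, and 3 of these 4 were called. Over all genes, 4651 of 12829 tested were called without library 2 and 4160 of 12762 without library 4. Without library 2, the radial glia and ependyma list had 4 calls among 5 tested genes, 3 higher and 1 lower.

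**Figure D4:**
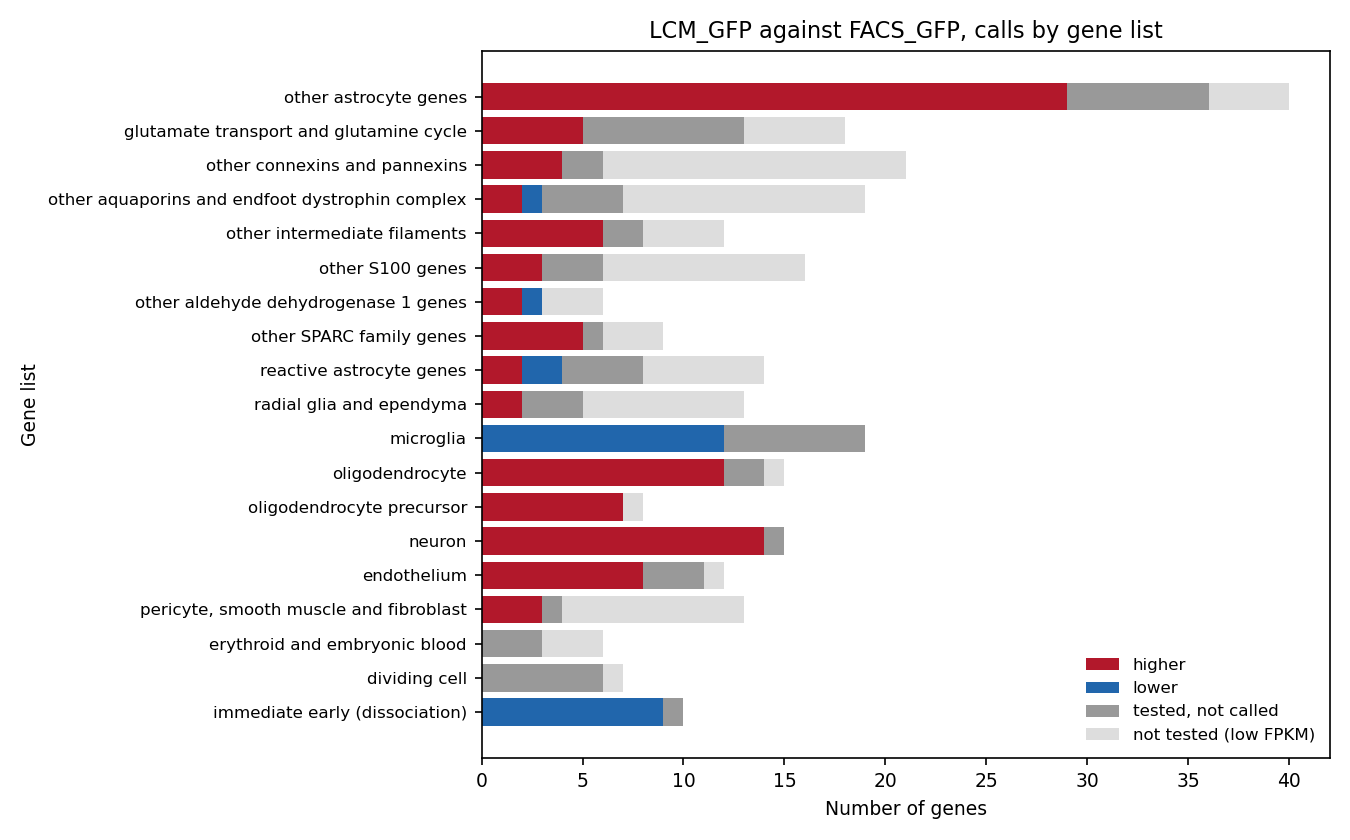
Number of genes called higher, called lower, tested but not called, and not tested, in each gene list, between laser-captured and sorted GFP microglia. The upper 10 lists are the companions of the 10 genes, where 29 of 40 further astrocyte genes were higher, and the lower 9 mark other cell types and states.

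Markers of other brain cells moved with the astrocyte genes. The summed FPKM of 15 neuronal genes was 1196 to 2866 in the laser-captured and 14.1 to 23.1 in the sorted libraries, with 14 of 15 tested genes called higher than in sorted GFP, among them Snap25 (7.75), Map2 (7.92) and Thy1 (7.23 on the log2 scale). For 15 oligodendrocyte genes the sums were 3131 to 8179 and 220.6 to 434.1 FPKM, with 12 of 14 tested genes higher, among them Mbp (8.93), while Trf (0.89) was not called. All 7 tested genes of oligodendrocyte precursors were higher, Olig1 by 6.08, Ptprz1 by 5.77 and Vcan by 4.25, with sums of 166.8 to 255.8 against 0.730 to 1.20 FPKM. For 12 endothelial genes the sums were 165.5 to 474.8 against 65.3 to 77.8 FPKM, with 8 of 11 tested genes higher: Slco1a4 rose by 5.76, and Slc2a1 (1.23) and Pecam1 (-1.29) were not called. For 13 genes of pericytes, smooth muscle and fibroblasts the sums were 31.0 to 99.3 against 0.727 to 3.27 FPKM, and 3 of 4 tested genes were higher, including Rgs5 (4.15) and Col1a1 (3.67), while Acta2 did not pass the filter. Microglial genes went the other way, with 12 of 19 lower, among them Laptm5 (-1.75), while Selplg (-1.49) was not called. Under median ratio scaling 3 of the 19 were lower, and without any 1 sorted GFP library 1 of the 19 was lower, 4 of the precursor genes were higher and 3 or 4 of the endothelial genes were higher.

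Immediate early genes, which tissue dissociation is known to switch on, were lower in the laser-captured libraries for 9 of 10 genes, with sums of 54.6 to 131.6 against 1645 to 2994 FPKM; Jun fell by 5.43, Egr1 fell by 4.30 and Zfp36 fell by 3.70 on the log2 scale. By limma the adjusted p was 0.125 for Hba-x and 0.0790 for Hba-a1, globin genes, and 0.283 for Top2a, 0.292 for Mki67 and 0.4499 for Ccna2, genes of dividing cells, while Hbb-y did not pass the filter. The part of other cell types and of dissociation in the differences of the astrocyte genes was not tested.

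The genes whose pattern over the 10 libraries was most like that of each astrocyte gene came from several cell types. Likeness was measured as the root mean square difference of log2(FPKM + 1), each gene centred on its own mean, so that 0 would be an equal pattern. Nearest to Slc1a2 were Slc24a2, a sodium/calcium exchanger (0.238), and Ncam1, a neural adhesion molecule (0.239). Nearest to Sparcl1 were Aldoc, the brain aldolase of astrocytes (0.166), and Mtap2, the microtubule-associated protein of neurons (0.259). For Gfap they were the neurofilament Nefm (0.309) and Ntsr2 (0.425), a neurotensin receptor and 1 of the 40 further astrocyte genes above. For Gja1 they were vitronectin Vtn (0.204) and the neuronal tau gene Mapt (0.205), and for Gjb6 Slit1 (0.190) and Psd (0.218). Aqp4 was nearest to Enpp6 (0.255), a gene of new oligodendrocytes. S100b was nearest to Arnt2 (0.164) and Csdc2 (0.171), and Aldh1l1 to Mapk4 (0.158) and Gabarapl1 (0.169). Nearest to Slc1a3 were Akap9 (0.183) and Kctd4 (0.191), and nearest to Glul were Ddx39b (0.121) and Sp3 (0.132). Like Slc1a3 and Glul, these genes were found in both kinds of library. The measure itself leads to that, since a gap between laser-captured and sorted levels in only 1 gene of a pair makes the difference large.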

How the data were processed

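RNA of 10 libraries was amplified with the Ovation RNA-Seq method and sequenced on Illumina instruments, per the labels' protocols. The submitters' processing notes name Cufflinks 2.0.2, Bowtie2 2.0.0, TopHat2 2.0.4, CASAVA 1.8.2 and the mouse build mm9 without giving their order. Annotation, strand and multiple mapping are not given in the sources used here. The deposited table holds FPKM per gene and library, per the file headers. A second deposited table gives the authors' log2 fold change and q-value for each pair of groups, per the file headers. Read counts are not in hand, so depth is unknown and no counting interval was computed. The spacing of low values put 5 sorted libraries at 0.966 to 1.27 times the depth of sorted wild-type library 1; that of the laser-captured libraries was not clear. Of the 37447 genes, 13661 were at 0 in every library. Whether a 0 stood for no reads or for a failed estimate was not examined.

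Groups follow the labels, which call each library a biological replicate; whether a replicate is 1 mouse is not stated. For each comparison its 2 groups were fitted with limma 3.58.1 (R 4.3.3, statmod 1.5.0; trend and robust) on log2(FPKM + 1), two-sided, for genes with at least 1 FPKM in at least 3 compared libraries, and p-values were adjusted by Benjamini-Hochberg over all genes tested, with calls under 0.05. Alternatives were other pseudocounts, filters, scalings and variance models, a fit of all 3 groups, labelled sex, a replicate block, and leaving out libraries. Python 3.11.15, pandas 2.3.3, numpy 2.4.6 and matplotlib 3.10.9 handled tables and figures.

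The 10 genes and the 19 lists of 267 genes were chosen with earlier results of these data known. Named from each list are its 3 genes of highest mean FPKM and, where 5 or fewer, those called against its direction; for each of the 10 genes, the 2 nearest genes that are neither predicted genes nor small RNAs. Map2 is Mtap2 in the table. Some genes that this rule names are not reported here.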

Additional observations from a re-analysis of the deposited data

Results flagged for a closer look

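Gjb6 in laser-captured library 4, at 20.9 FPKM, lay far from the other 3 laser-captured libraries (2.27 to 5.29 FPKM): its gap to the next library took 0.838 of the group's range, above Dixon's 95% critical value for 4 samples. The 10 genes were each looked at in the laser-captured group, and chance flags about 5% of groups. The second largest gaps were those of Gja1, also high in library 4 (0.764), and of S100b, low in library 1 (0.745).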

How the results depend on the processing

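Slc1a2, Gfap, Gja1, S100b and Sparcl1 kept their direction and their call against both sorted groups under every alternative in which they were tested. The number of the 10 genes called was 5 to 8 against sorted GFP, 6 to 8 against sorted wild-type and 0 between the sorted groups when 1 library was left out. Over all genes, the calls then ran from 1042 of 12697 to 5434 of 13045 tested against sorted GFP. They ran from 1089 of 12695 to 5257 of 13044 against sorted wild-type, and from 4 of 11658 to 15 of 11670 between the sorted groups. With laser-captured libraries 2 and 4 alone, the filter was applied to the remaining libraries. In each laser comparison 3 of the 10 genes were then tested and 1 was called, because a gene near 0 in 3 sorted libraries cannot reach 1 FPKM in 3 of 5. Over all genes, 4985 of 11547 tested were called against sorted GFP and 4686 of 11586 against sorted wild-type. With the genes of the full filter, an alternative chosen after seeing the data, 8 of the 10 genes were called in each. Over all genes, 6651 of 13403 and 6337 of 13415 were called there. Directions turned for uncalled genes, and the cause was not tested. Slc1a3 against sorted GFP ran from -0.645 to 0.152 when 1 library was left out, and was 0.224 with median ratio scaling, 0.0166 with quantile normalization and 0.326 with laser-captured libraries 2 and 4 alone under either filter. Slc1a3 against sorted wild-type ran from -0.285 to 0.513, being below 0 without laser-captured replicate 2, 4 or wild-type replicate 3. Glul with median ratio scaling was 0.355 against sorted GFP and 0.424 against sorted wild-type, where it ran from -0.263 to 0.00398 with 1 library left out; between the sorted groups it then ran from -0.0372 to 0.14. Aldh1l1 against sorted wild-type passed with quantile normalization (1.73, adjusted p = 0.0408), a spread per group (1.51, adjusted p = 0.0337), 1 fit of all groups (1.51, adjusted p = 0.0400) and without laser-captured replicate 1 (2.02, adjusted p = 0.00528). It did not pass in 10 of the 15 alternatives in which it was tested. Among these were no filter on low values (1.51, adjusted p = 0.157) and the replicate block (1.11, adjusted p = 0.138).

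To see whether equal replicate numbers marked paired samples, deviations from the group means were correlated across genes. In the laser comparisons equal numbers gave -0.03 to 0.01 and -0.040 to -0.0020, and unequal numbers gave -0.03 to 0.06. Between the sorted groups equal numbers gave 0.01 to 0.21 and unequal numbers -0.22 to 0.09, so pairing there was not settled. With the replicate block 7, 7 and 0 of the 10 genes were called in the 3 comparisons, and Slc1a3 against sorted wild-type was -0.0216. Over all genes tested, the calls with the replicate block were 3370 of 13403, 3334 of 13415 and 19 of 11814. The number of genes called over the whole table between laser-captured and sorted GFP fell from 4305 to between 1042 and 1087 without any 1 sorted GFP library. Against sorted wild-type, labelled sex as a covariate was an alternative chosen after seeing the data. It rests on the 1 laser-captured library labelled male, so its count of calls is not given. The unknown depth limits what values near 0 FPKM can show.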
